A study of Mus musculus with 24 samples.

Results

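The brains of the 12 mice that had received human amnion epithelial cells were compared between 6 mice infused with angiotensin II and 6 mice infused with saline vehicle. These 12 mice were chosen by their labels, from 24 mice in the whole series, and each gene above 0 FPKM in at least 6 of the 12 was tested, which gave 24192 of the 54532 genes in the table. All were male wild-type C57BL/6J mice of 8 to 12 weeks, and every one of the 12 carried the same cell treatment, a single injection into the tail vein of epithelial cells taken from the amnion of human term placentae. An osmotic minipump delivered angiotensin II at 0.7 mg/kg/day or saline over 14 days, after which RNA of the brain hemispheres was sequenced. The other 12 mice of the series received vehicle or angiotensin II without cells. The comparison asks what angiotensin II does to the brain transcriptome when the cells are present in both arms, so that the cells themselves are not part of the contrast. The table holds mouse genes, so RNA of the injected human cells was not measured as such.

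Angiotensin II is the effector peptide of the renin-angiotensin system and raises blood pressure by constricting vessels, retaining salt and stimulating the hypothalamus through its type 1 receptor. In the brain it is known to act on the endothelium of the blood-brain barrier, on circumventricular neurons and on microglia, and it draws leukocytes to the vessel wall. Amnion epithelial cells are placental cells known for anti-inflammatory and anti-fibrotic actions, and were given here at the start of the infusion.

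Expression was measured as FPKM, which scales the fragments of a gene to its length in kilobases and to the size of the library. Between 16645396 and 21229594 fragments were recovered from the FPKM values of each of the 12 mice. Values of 3 reads or fewer were counted as near 0 where stated, but the filter and the tests used them as they are. The tissue carried the defining genes of brain: all 10 neuronal and all 11 myelin markers listed were tested, and the summed FPKM of the neuronal markers was 1384 to 1707 with angiotensin II and 1404 to 1755 with vehicle. A set of 3 of the 12 libraries stood apart from the other 9, namely angiotensin II replicates 5 and 6 and vehicle replicate 6, with totals of 338334 to 348597 FPKM against 277116 to 298301 FPKM and 6.59% to 6.71% of reads from the mitochondrial genome against 4.996% to 5.597%. The labels name no batch, and these libraries were not balanced over the groups (2 with angiotensin II and 1 with vehicle), so results are also given with the library set as a term in the fit and without the 3 libraries. A gene is said to have passed at an unadjusted p-value under 0.05 in the limma fit, with differences on the log2(FPKM + 0.1) scale as angiotensin II minus vehicle, which understates the change of genes near 0. Values in brackets after a gene are this difference and the p-value of an exact permutation test of it, two-sided, on 6 against 6 mice, which cannot go below 0.00216. It is not adjusted for the number of genes. Of the 45 named genes that passed in the limma fit, 8 had an exact p-value of 0.05 or more. Where 3 levels are given they are the lowest, the median and the highest of the 6 mice.

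No gene was called after adjustment over all genes. The number at an adjusted p-value under 0.05 was 0 of 24192 (0.0%), with a lowest adjusted p-value of 0.505, in the limma fit. It was 0 in each alternative fit run, among them voom on the recovered reads, in which 595 genes passed at an unadjusted p-value. At an unadjusted p-value under 0.05, 605 genes (2.5%) passed, 362 of them higher with angiotensin II (1.5%) and 243 lower (1.0%), where 5% of the genes would be 1209.6. The median difference over all genes was -0.01, and 47% of genes were higher with angiotensin II. In 23 genes (0.0951%) the 6 mice of one group all lay above the 6 of the other, 14 of them higher with angiotensin II. Random group labels give such a separation with a probability of at most 0.00216 for each gene, and the share found lay below this. No gene was above 0 in all mice of one group and at 0 in all mice of the other.

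The passing genes were mostly of low expression. Of genes with a mean under 0.1 FPKM over the 12 mice, 186 of 3460 passed (5.38%), as did 282 of 7085 between 0.1 and 1 FPKM (3.98%), 124 of 8745 between 1 and 10 FPKM (1.42%) and 13 of 4902 at 10 FPKM or more (0.265%). In 206 of the 605 genes every mouse of a group had 3 reads or fewer, so their fitted differences depend on the pseudocount and are no measure of fold. Among protein-coding genes, 180 were higher and 81 lower of 16873 tested (1.55%), and 91 of 1675 lincRNAs passed (5.43%). At the edge of the filter, the 822 genes above 0 in exactly 6 mice had a median mean of 0.0401 FPKM, and the 900 genes above 0 in exactly 5 mice, which were left out, had 0.0339 FPKM.

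The clearest group of genes was that of the neutrophil. Of 13 marker genes listed, 12 were tested, 7 passed and all 7 were higher with angiotensin II, against 2.5% of all genes passing and 1.5% passing as higher. The median difference over the 12 was 0.88 on the log2 scale, against -0.01 over all genes. The 7 were the secondary granule genes Camp, Ngp and Ltf, the primary granule genes Mpo and Elane, and S100a8 and S100a9, which encode the calprotectin dimer that fills the neutrophil cytosol. Ly6g, the surface marker of the mature mouse neutrophil, was not tested because too few mice had a read of it. By the exact permutation test Camp, Ngp and Mpo were under 0.05, and Ltf, Elane, S100a8 and S100a9 were not. In bulk tissue, the number of such cells, their stage of ripening and the RNA per cell cannot be told apart.

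Camp, which encodes the cathelicidin antimicrobial peptide (chr9:109847379-109849617, GRCm38), had the lowest p-value of the list. Its values were 0.688, 1.34 and 3.03 FPKM with angiotensin II and 0.212, 0.483 and 0.694 FPKM with vehicle, a difference of 1.55 ± 0.46 (log2, SE, adjusted p = 0.9995, exact p = 0.00433). The lowest angiotensin II mouse lay just under the highest vehicle mouse, and the other 5 were above all vehicle mice. The difference passed with the library set as a term (1.46), without the 3 libraries (1.43) and with any 1 of the 12 mice left out. In the mice without cells the difference of Camp was 0.03. The test of the difference between the effects passed at the unadjusted threshold (adjusted p = 0.924). The paper lists Camp among the top genes raised in brain when cells were added to angiotensin II. Over the 12 tested markers the median without cells was 0.53, with 3 passing. Some of these markers were named by the study from those same mice.

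Ngp, the neutrophilic granule protein, had 0.971, 1.84 and 5.77 FPKM with angiotensin II and 0.526, 0.905 and 1.38 FPKM with vehicle, a difference of 1.28 ± 0.48 (log2, SE, adjusted p = 0.9995, exact p = 0.0216). Ltf, lactoferrin, had a difference of 0.99 (exact p = 0.11), with the single highest value of 1.65 FPKM against a highest vehicle value of 0.389 FPKM, and 1 angiotensin II mouse at 0.0573 FPKM lay below every vehicle mouse. In both genes 3 of the 6 angiotensin II mice, replicates 1, 4 and 6, were above every vehicle mouse. Of the primary granule genes, Mpo, myeloperoxidase, had 0.0609, 0.246 and 0.5 FPKM with angiotensin II and 0, 0.0813 and 0.16 FPKM with vehicle (0.90, exact p = 0.0303). Elane, neutrophil elastase, had 0.106, 0.303 and 1.19 FPKM with angiotensin II and 0, 0.101 and 0.335 FPKM with vehicle (1.07, exact p = 0.0606), and the groups overlapped in both genes.

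S100a8 had 3.54, 5.44 and 14 FPKM with angiotensin II and 2.01, 3.32 and 5.54 FPKM with vehicle, a difference of 0.87 ± 0.35 (log2, SE, adjusted p = 0.9995, exact p = 0.0584). S100a9 had 3.41, 9.73 and 22.2 FPKM with angiotensin II and 2.1, 5.04 and 7.47 FPKM with vehicle, a difference of 0.99 ± 0.40 (log2, SE, adjusted p = 0.9995, exact p = 0.0693). In both genes the highest values were those of angiotensin II replicates 4, 6 and 1 in that order, and the lowest angiotensin II mice lay within the vehicle range. The differences were 0.78 and 0.98 in the mice without cells, where these genes were part of the list that the study drew from the same mice, so the sizes are given side by side and not as independent evidence there.

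The markers that did not pass were Lcn2 (0.57, exact p = 0.331), Retnlg (0.67, exact p = 0.203), Mmp8 (0.37, exact p = 0.277), Mmp9 (0.08, exact p = 0.626) and Cxcr2 (-0.26, exact p = 0.37), the receptor that draws neutrophils out of the marrow. The summed FPKM of the 13 markers was 30.3, 11.7, 14.2, 52.7, 16.4 and 41.5 in angiotensin II replicates 1 to 6. It was 18.7, 10.7, 11.2, 13.6, 12.8 and 8.51 in vehicle replicates 1 to 6. Angiotensin II replicates 1, 4 and 6 were above all vehicle mice, while replicates 2, 3 and 5 lay within the vehicle range. The count rested on these mice: without replicate 4 it was 3 of 12, without replicate 6 it was 4 of 12, and without the 3 libraries that stood apart it was 2 of 12 with a median of 0.73, although 11 of the 12 genes were higher in the fit of the other 9 mice as in that of all 12. With the library set as a term 7 passed and the median was 0.90.

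**Figure D1:**
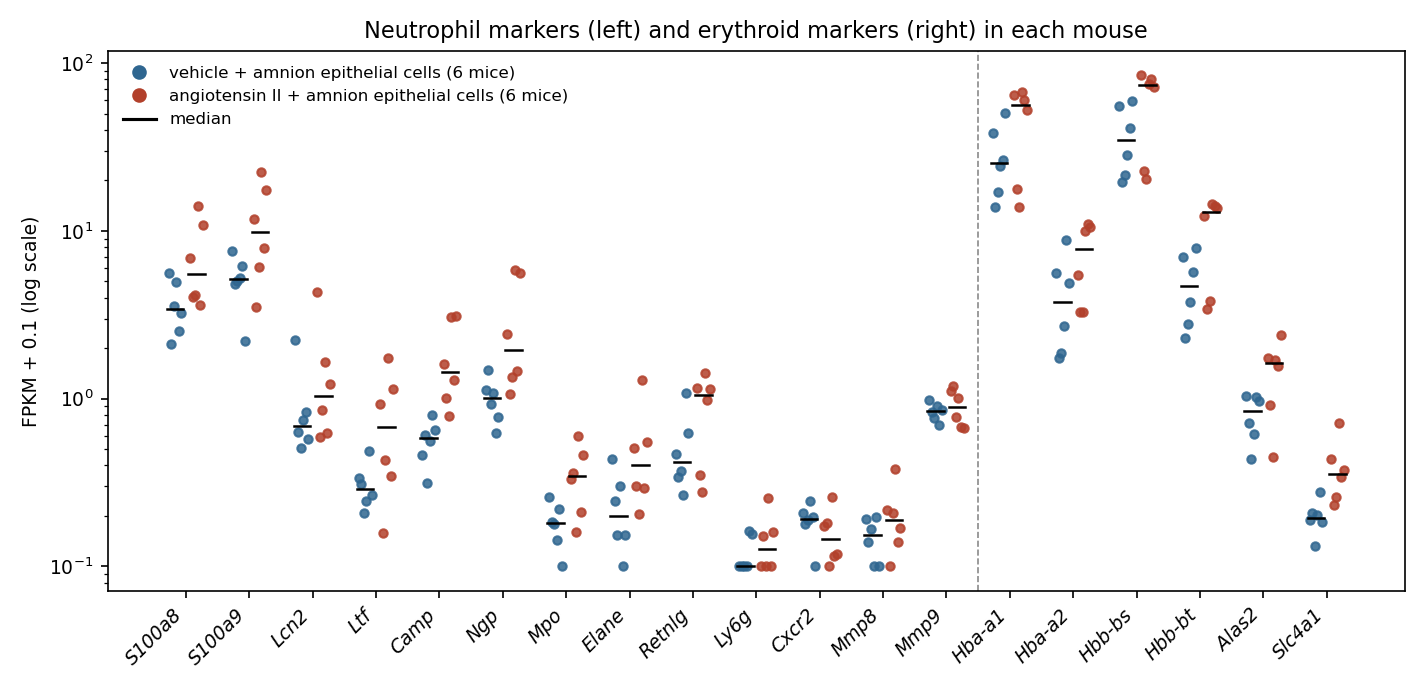
Each point is 1 mouse, with FPKM + 0.1 on a log scale on the vertical axis, for the 13 neutrophil markers and the 6 erythroid markers found in the table. Blue points are vehicle + amnion epithelial cells, red points angiotensin II + amnion epithelial cells, and black bars are medians. Camp separates the groups almost fully, from 0.212 to 0.694 FPKM against 0.688 to 3.03 FPKM, while the globin genes overlap.

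Genes of red blood cells were measured beside those of neutrophils. All 6 erythroid genes listed that are in the table were higher with angiotensin II, with a median difference of 0.80, and 1 passed, where 1.5% of all genes passed as higher. Slc4a1, the band 3 anion exchanger, was at 0.131, 0.258 and 0.621 FPKM with angiotensin II and 0.0329, 0.0957 and 0.179 FPKM with vehicle (0.91, exact p = 0.00649). The globin genes come in near-identical pairs between which reads cannot be split with certainty. In these abundant transcripts the difference did not pass: Hbb-bs had 20.3, 73.6 and 84.5 FPKM with angiotensin II and 19.3, 34.5 and 59.2 FPKM with vehicle (0.57, exact p = 0.249) and Hba-a1 had a difference of 0.59 (exact p = 0.266).

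The summed FPKM of the 6 erythroid genes was 169, 47.8, 41.4, 169, 168 and 151 in angiotensin II replicates 1 to 6 and 107, 37.7, 43.2, 59.4, 82.7 and 123 in vehicle replicates 1 to 6. Replicates 2 and 3 with angiotensin II were low in both sums, replicates 1, 4 and 6 high in both, and replicate 5 was high in the erythroid sum and within the vehicle range in the neutrophil sum. The highest vehicle value belonged to replicate 6, a library of the set that stood apart. With that set as a term the erythroid median was 0.61, and without the 3 libraries 0.54, with all 6 genes higher and 1 passing in each. The part of blood left in the tissue in the neutrophil values was not tested.

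**Figure D2:**
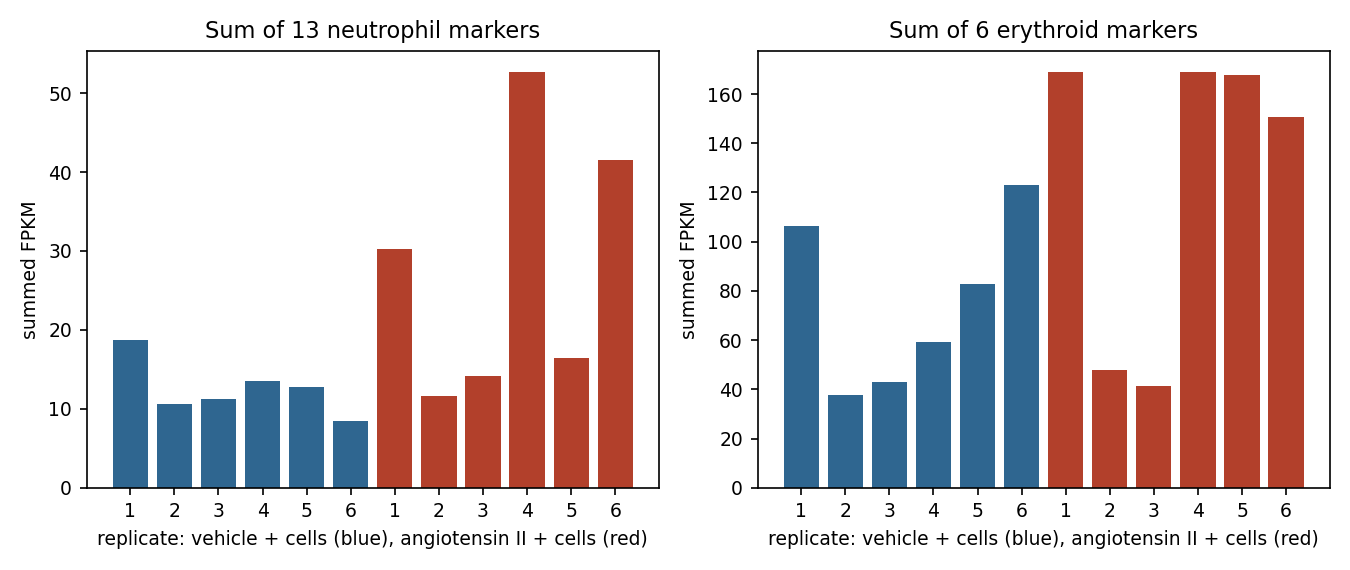
Bars give the summed FPKM of the 13 neutrophil markers (left) and the 6 erythroid genes (right) in each mouse, vehicle + amnion epithelial cells in blue and angiotensin II + amnion epithelial cells in red, by replicate number. The neutrophil sum runs from 11.7 to 52.7 in the angiotensin II mice and from 8.51 to 18.7 in the vehicle mice, and the same angiotensin II mice 1, 4 and 6 are high in both panels.

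Other genes of marrow and blood cells, chosen after their values were seen and therefore given as values only, were of the same direction or near 0. Cd177, a neutrophil surface glycoprotein, was 0.184 FPKM on average with angiotensin II and 0.0488 FPKM with vehicle, and Ly6c2, carried by inflammatory monocytes and neutrophils, was 0.17 and 0.0418 FPKM. Chil3 was 0.781 and 0.311 FPKM and Cebpe, the factor of late granule formation, 0.117 and 0.0405 FPKM. The platelet genes Ppbp (0.387 and 0.127 FPKM) and Pf4 (1.85 and 1.3 FPKM) were also higher on average, whereas Ccr2, the receptor of inflammatory monocytes, was 0.0455 and 0.0548 FPKM.

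The 7 neutrophil genes that passed are known to be switched on in turn as granulocytes ripen, in part by factors of the C/EBP family, so their promoters were read from RefSeq (GRCm38.p6). The motif TTGCNNAA, a common core of C/EBP sites, was searched on both strands in the 250 bases before each start, where its reverse complement reads TTNNGCAA, and the motif was chosen after the genes were known. It was present before 3 of the 7 genes, S100a9, Ltf and Ngp, and before 9.56% of all 32851 promoters in the table. Over all 11 tested markers with a promoter in the table it was present before 6, the others being Lcn2, Retnlg and Mmp8, which did not pass, so its presence did not follow which markers passed. The promoters of these 3 genes are shown because they are the passing genes with a match, which is marked in capitals. They lie at chr3:90695722-90695971 on the minus strand, chr9:111019042-111019291 on the plus strand and chr9:110419558-110419807 on the plus strand.
S100a9 promoter: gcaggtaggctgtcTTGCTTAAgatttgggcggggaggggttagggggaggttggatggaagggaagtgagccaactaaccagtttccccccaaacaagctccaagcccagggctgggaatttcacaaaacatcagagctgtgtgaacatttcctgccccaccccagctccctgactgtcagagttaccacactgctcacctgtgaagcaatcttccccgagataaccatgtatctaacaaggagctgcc
Ltf promoter: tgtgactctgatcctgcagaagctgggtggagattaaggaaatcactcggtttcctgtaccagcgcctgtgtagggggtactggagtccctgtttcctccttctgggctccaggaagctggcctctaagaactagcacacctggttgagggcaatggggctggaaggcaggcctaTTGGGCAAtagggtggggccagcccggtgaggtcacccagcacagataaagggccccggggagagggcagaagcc
Ngp promoter: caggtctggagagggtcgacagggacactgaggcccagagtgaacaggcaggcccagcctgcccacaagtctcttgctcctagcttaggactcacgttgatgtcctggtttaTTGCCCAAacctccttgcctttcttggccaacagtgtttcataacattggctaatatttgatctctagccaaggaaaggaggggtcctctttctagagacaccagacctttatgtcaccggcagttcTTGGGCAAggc
S100a9 and Ltf each held 1 match and Ngp held 2. A match in these letters is a description of the sequence and says nothing of binding. Camp, which had the lowest p-value of the list, had no match in this window.

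Among genes with a mean of at least 1 FPKM, 13647 in all, the 10 lowest p-values of those higher with angiotensin II belonged to Gm39469, Snupn, Camp, Zfp825, Podxl, Zfp58, Pou2f2, Cercam, Plau and Gm14703. Their differences apart from Camp were small, from 0.25 to 0.75 on the log2 scale. None passed after adjustment, and all 10 passed with the library set as a term and with any 1 mouse left out. Without the 3 libraries that stood apart 9 of the 10 passed, the exception being Plau with a difference of 0.24.

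Podxl encodes podocalyxin, a sialomucin of the endothelial surface and of kidney podocytes (chr6:31519488-31563981). It had 7.9, 8.16 and 10.7 FPKM with angiotensin II and 6.46, 7.21 and 7.45 FPKM with vehicle, a difference of 0.27 ± 0.08 (log2, SE, adjusted p = 0.9995, exact p = 0.00216). All 6 angiotensin II mice were above all 6 vehicle mice, which gives the smallest exact p-value that 6 against 6 mice allow. Pou2f2, which encodes the lymphocyte factor Oct-2 (chr7:25087344-25179726), had 1.9, 1.94 and 2.1 FPKM with angiotensin II and 1.45, 1.61 and 1.88 FPKM with vehicle and likewise did not overlap between groups (0.25, exact p = 0.00216). The genes D930028M14Rik and Mir6537 overlap Pou2f2, and the use of strand in counting is not given in the sources used here.

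Snupn encodes snurportin 1, which carries spliceosomal RNA-protein particles into the nucleus (chr9:56950878-56983206), and had 7.32, 8.13 and 9.14 FPKM with angiotensin II and 5.76, 6.79 and 7.69 FPKM with vehicle, a difference of 0.26 ± 0.07 (log2, SE, adjusted p = 0.9995, exact p = 0.00649). The lincRNA Gm39469 had 3.54, 4.55 and 5.46 FPKM with angiotensin II and 1.29, 2.7 and 3.84 FPKM with vehicle, a difference of 0.75 ± 0.21 (log2, SE, adjusted p = 0.9995, exact p = 0.013). In both genes the groups overlapped, with 5 and 4 of the 6 angiotensin II mice above every vehicle mouse. Plau, the urokinase-type plasminogen activator, was at 1.2 ± 0.183 FPKM with angiotensin II and 0.928 ± 0.106 FPKM with vehicle (SD, n = 6, log2 difference 0.33, exact p = 0.0108). Cercam, a cell adhesion gene of brain endothelium, was at 4.02 ± 0.584 FPKM with angiotensin II and 3.26 ± 0.333 FPKM with vehicle (0.29, exact p = 0.0173), and it overlaps the gene 2600006K01Rik. The zinc finger genes Zfp825 (0.38, exact p = 0.0238) and Zfp58 (0.35, exact p = 0.0152) belong to a large family of similar sequences, and Gm14703 (0.45, exact p = 0.00866) is annotated as antisense and overlaps the neuronal gene Syp, so the reads of the last cannot be told apart without strand.

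**Figure D3:**
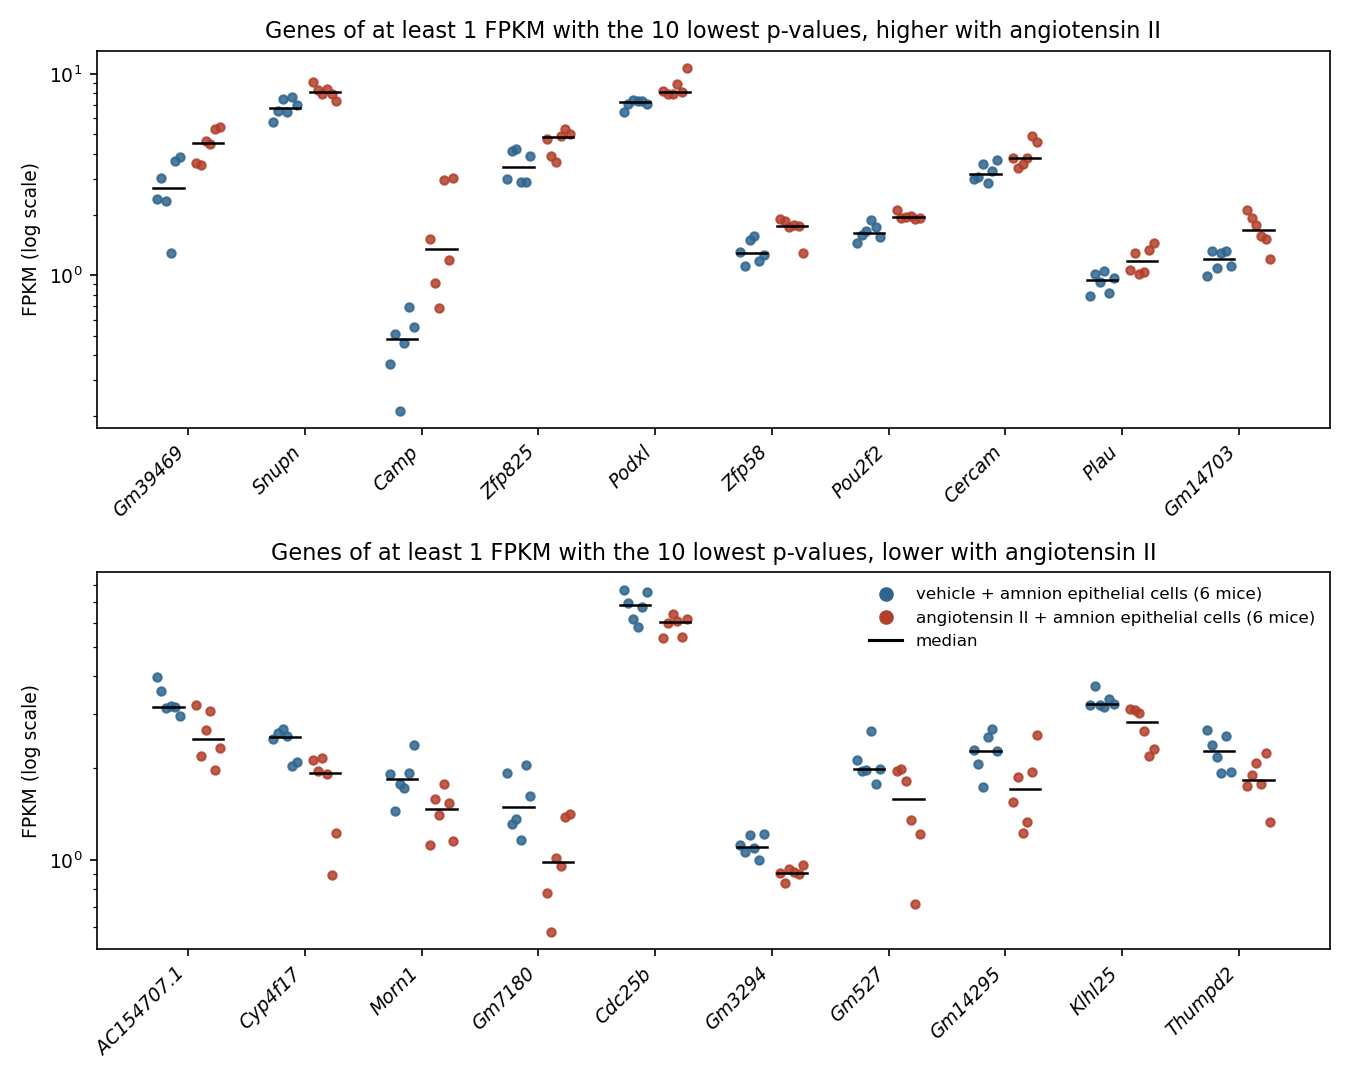
Points are mice and black bars medians, with FPKM on a log scale on the vertical axes, for the genes of at least 1 FPKM with the lowest p-values among those higher (upper panel) and lower (lower panel) with angiotensin II. Blue is vehicle + amnion epithelial cells and red angiotensin II + amnion epithelial cells. Podxl (6.46 to 7.45 against 7.9 to 10.7 FPKM), Pou2f2, Gm3294 and Klhl25 are the 4 genes in which the groups do not overlap.

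The 10 lowest p-values of well expressed genes lower with angiotensin II belonged to AC154707.1, Cyp4f17, Morn1, Gm7180, Cdc25b, Gm3294, Gm527, Gm14295, Klhl25 and Thumpd2, with differences from -0.61 to -0.20. Klhl25, an adaptor of a cullin 3 ubiquitin ligase (chr7:75848310-75874131), had 2.19, 2.84 and 3.13 FPKM with angiotensin II and 3.17, 3.24 and 3.7 FPKM with vehicle (-0.28, exact p = 0.00216). All 6 angiotensin II mice lay below all 6 vehicle mice, but the lowest 2 were the libraries that stood apart, and without the 3 libraries of the set the difference was -0.16 and did not pass. The lincRNA Gm3294 also did not overlap, with 0.839, 0.908 and 0.964 FPKM with angiotensin II and 0.999, 1.11 and 1.22 FPKM with vehicle (-0.27, exact p = 0.00216), and its locus overlaps Mir129-1.

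Cdc25b, a phosphatase that activates cyclin-dependent kinases, had 5.35, 6.04 and 6.42 FPKM with angiotensin II and 5.8, 6.85 and 7.7 FPKM with vehicle (-0.20, exact p = 0.0281). Cyp4f17, a cytochrome P450 of the family that oxidises fatty acids, had 0.893, 1.93 and 2.16 FPKM with angiotensin II and 2.04, 2.53 and 2.69 FPKM with vehicle (-0.53, exact p = 0.013), and its lowest 2 values were again angiotensin II replicates 5 and 6. Without the 3 libraries Morn1 (-0.25), Cdc25b (-0.16), Gm527 (-0.23) and Klhl25 did not pass and the other 6 did, while with the library set as a term all 10 passed. Thumpd2 did not pass without angiotensin II replicate 6. AC154707.1 and Gm7180 are processed pseudogenes whose reads may be shared with their parent genes, so their values are uncertain.

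The lowest p-values of all came from genes under 1 FPKM. Tnni3k, a kinase best known from cardiac muscle (chr3:154786291-155055407), had 0.085, 0.11 and 0.156 FPKM with angiotensin II and 0.0146, 0.0248 and 0.0532 FPKM with vehicle, a difference of 0.71 ± 0.14 (log2, SE, adjusted p = 0.505, exact p = 0.00216). That is 5 to 9 reads in each angiotensin II mouse against 1 to 3 reads in each vehicle mouse, and the groups did not overlap. In the mice without cells the difference was -0.49, and the test of the difference between the effects passed at the unadjusted threshold (adjusted p = 0.0745). Gm9626, a processed pseudogene, had 3 to 6 reads in each angiotensin II mouse and 0 or 1 in each vehicle mouse, a difference of 1.47 (exact p = 0.00216).

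The other low genes with the lowest p-values of those higher were Pheta2 (0.82, exact p = 0.00649), A130051J06Rik (0.77, exact p = 0.0108) and Psma8 (1.03, exact p = 0.00216), a proteasome subunit of germ cells. Those lower were Slc5a4b (-0.49, exact p = 0.00649), a member of the sodium-glucose transporter family, Gm12799 (-0.62, exact p = 0.00649), 4930568A12Rik (-1.03, exact p = 0.00216), Gm21154 (-0.88, exact p = 0.00433) and 1810019N24Rik (-0.64, exact p = 0.0152). The lower genes rested on 0 to 6 reads per mouse, so their differences are no measure of fold. The same holds for Psma8, with 1 to 2 reads in each vehicle mouse and 2 to 17 in each angiotensin II mouse. All 10 of these low genes passed with the library set as a term, without the 3 libraries and with any 1 mouse left out.

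Of the 23 genes whose groups did not overlap, chosen here for that pattern and given as a description, 7 had means of at least 1 FPKM. Besides Podxl, Klhl25, Pou2f2 and Gm3294 these were mt-Atp8, Slco4a1 and B230303A05Rik. mt-Atp8, a subunit gene of the mitochondrial ATP synthase, had 5.87, 6.85 and 8.77 FPKM with angiotensin II and 1.88, 4.13 and 5.78 FPKM with vehicle, overlaps mt-Atp6 and is short, and 0 of the 13 mitochondrially encoded genes passed. Slco4a1, an organic anion transporter that also carries thyroid hormone, was at 1.5 FPKM with angiotensin II and 1.77 FPKM with vehicle. Its difference of -0.23 did not pass, nor did that without the 3 libraries (-0.22), while it passed with the library set as a term (-0.23). In the mice without cells the difference of Slco4a1 was 0.26. Of the low genes, Psma8 was at 0.223 and 0.0465 FPKM, and Spib, a factor of B cells and plasmacytoid dendritic cells, at 0.0935 and 0.033 FPKM. In the mice without cells the difference of Psma8 was -0.79, and the test of the difference between the effects passed at the unadjusted threshold (adjusted p = 0.924).

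The renin-angiotensin system itself showed no passing gene. Of 15 listed members 0 passed, with a median difference of 0.05 and the lowest p-value at Agtr1a, the main receptor of the peptide (-0.29, exact p = 0.165). Agt, the precursor made by astrocytes, was at 54 ± 11.4 FPKM with angiotensin II and 55.5 ± 9.83 FPKM with vehicle (-0.05, exact p = 0.764). Atp6ap2, the prorenin receptor, was at 75.3 ± 3.42 FPKM with angiotensin II and 72.8 ± 4.14 FPKM with vehicle (0.05, exact p = 0.286) and passed with the library set as a term (0.07).

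Genes of the extracellular matrix and its turnover were higher in Col1a1 and Col5a2. Of 18 listed, 2 passed, both higher, against 1.5% of all genes, with a median difference of 0.07. Col1a1, the main chain of type I collagen (chr11:94936224-94953042), had 2.32, 2.58 and 6.12 FPKM with angiotensin II and 1.56, 2.14 and 3.02 FPKM with vehicle, a difference of 0.60 ± 0.24 (log2, SE, adjusted p = 0.9995, exact p = 0.0411). The highest 2 values were angiotensin II replicates 5 and 6, and the highest vehicle value was replicate 6, all of the set that stood apart. The difference was 0.45 with the set as a term, which passed, and 0.33 without the 3 libraries, which passed, while it did not pass without angiotensin II replicate 5, angiotensin II replicate 6 or vehicle replicate 1.

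Col5a2, a chain of type V collagen, had a difference of 0.35 (exact p = 0.0346) and did not pass in 5 of the 12 fits with 1 mouse left out. The most abundant members, Col6a1 (0.02, exact p = 0.751) and Col4a2 (0.07, exact p = 0.0368), did not pass.

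Among genes of microglial activation 2 of 13 passed, both higher, against 1.5% of all genes, with a median of 0.12. Tlr2, the receptor for bacterial lipoproteins (chr3:83836272-83841767), had 0.439, 0.59 and 0.698 FPKM with angiotensin II and 0.155, 0.338 and 0.456 FPKM with vehicle, a difference of 0.71 ± 0.21 (log2, SE, adjusted p = 0.9995, exact p = 0.00433) that passed in every fit leaving out 1 mouse, with the library set as a term (0.76) and without the 3 libraries (0.76). In the mice without cells it was -0.24, and the test of the difference between the effects passed at the unadjusted threshold (adjusted p = 0.924). Clec7a, dectin-1, had a difference of 0.54 (exact p = 0.0801) and passed in 5 of the 12 fits with 1 mouse left out. Of the 11 genes of microglial identity 0 passed, with Csf1r at 16.2 ± 1.37 FPKM with angiotensin II and 16 ± 1.18 FPKM with vehicle and Tmem119 with a difference of 0.14 (exact p = 0.515). Tlr2 is also made by neutrophils, and angiotensin II replicates 1, 4 and 6, which had the highest neutrophil sums, had its 3 highest values. The part of neutrophils in the Tlr2 difference was not tested.

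Of 14 inflammatory cytokine and receptor genes tested, Tlr2 alone passed, and the median was -0.04, with 0.14 (exact p = 0.329) for Il18 and -0.14 (exact p = 0.444) for Nfkbia. Of 14 complement genes 0 passed (C1qa 0.17 with exact p = 0.535 and C1qb 0.13 with exact p = 0.526), and of 13 T cell genes 0 passed (Trbc2 0.06 with exact p = 0.697 and Cd4 0.03 with exact p = 0.87). Of 12 adhesion molecules 0 passed (Mcam 0.12 with exact p = 0.251 and Jam2 0.02 with exact p = 0.861), and 2 did without the 3 libraries. Antigen presentation genes had 0 of 12 passing (B2m 0.11 with exact p = 0.623 and H2-D1 0.06 with exact p = 0.829), and their median of 0.10 became -0.01 with the library set as a term.

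Of 16 genes of the barrier endothelium 1 passed. With 2.5% of all genes passing, 1 member of a list of this size is no result about the list, and the same holds for the other lists with 1 passing member. Pecam1, the endothelial adhesion molecule CD31, had 3.83, 4.09 and 4.41 FPKM with angiotensin II and 3.07, 3.64 and 4.12 FPKM with vehicle, a difference of 0.18 ± 0.08 (log2, SE, adjusted p = 0.9995, exact p = 0.0152), which did not pass without the 3 libraries (0.14) and passed in 6 of the 12 fits leaving out 1 mouse. Cldn5, the tight junction claudin, was at 52.2 ± 16.3 FPKM with angiotensin II and 43.3 ± 15.3 FPKM with vehicle (0.28, exact p = 0.273), and Slc2a1, the glucose transporter, had a difference of -0.03 (exact p = 0.803). Mural cell genes had 0 of 12 passing, with Acta2 at 13.7 ± 9.66 FPKM with angiotensin II and 9.63 ± 6.94 FPKM with vehicle (0.44, exact p = 0.271) and Rgs5 at -0.02 (exact p = 0.803). Nos2, the inducible nitric oxide synthase, passed as 1 of 11 nitric oxide and endothelin genes (0.51, exact p = 0.0866), at 0.142, 0.23 and 0.444 FPKM with angiotensin II and 0.0373, 0.133 and 0.316 FPKM with vehicle, but did not with the library set as a term (0.46). The most abundant members of that list were Gucy1b1 (-0.06, exact p = 0.749) and Ece1 (-0.01, exact p = 0.87). Of 21 NADPH oxidase and antioxidant genes 0 passed (Gpx4 0.12 with exact p = 0.658 and Gpx1 0.09 with exact p = 0.673).

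Among hypothalamic neuropeptide genes 1 of 13 passed, where 2.5% of all genes did, so its values describe that gene and not the list. Crh, the corticotropin-releasing hormone that opens the stress axis, had 5.14, 6.37 and 7.46 FPKM with angiotensin II and 4.63, 4.93 and 6.55 FPKM with vehicle, a difference of 0.29 ± 0.12 (log2, SE, adjusted p = 0.9995, exact p = 0.0303). It passed with the library set as a term (0.25) but not without the 3 libraries (0.17) or without angiotensin II replicate 6. Avp, vasopressin, was at 29.9 ± 4.42 FPKM with angiotensin II and 31 ± 6.35 FPKM with vehicle (-0.04, exact p = 0.788), and Npy had a difference of 0.21 (exact p = 0.266). Gpr6, a receptor of striatopallidal neurons, was lower as 1 of 11 striatal genes, at 4.76, 5.18 and 5.89 FPKM with angiotensin II and 5.14, 5.82 and 7.38 FPKM with vehicle (-0.18, exact p = 0.0693), and passed in 5 of the 12 fits leaving out 1 mouse, while Penk had a difference of 0.04 (exact p = 0.779) and Ppp1r1b one of 0.10 (exact p = 0.608). General neuronal genes had 0 of 10 passing (Snap25 -0.04 with exact p = 0.517 and Camk2a 0.02 with exact p = 0.712).

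In several lists most members lay on one side with 0 passing. All 16 circadian clock genes had differences below 0, with a median of -0.12, with 0 passing (Nr1d1 -0.07 with exact p = 0.487 and Tef -0.08 with exact p = 0.69). With the library set as a term 12 of 16 were lower and the median was -0.04. Of 12 glucocorticoid target genes 10 were lower and 0 passed, with a median of -0.20 that became -0.07 with the set as a term. Without the 3 libraries 10 of the 12 were lower, with a median of -0.11 and 1 passing. In the fit of all mice Per1 was -0.21 (exact p = 0.242) and Tsc22d3 -0.10 (exact p = 0.418). The lowest p-value was at Sgk1 (-0.59, exact p = 0.152). All 16 interferon-stimulated genes had differences above 0, with a median of 0.14, with 0 passing (Ifi27 0.13 with exact p = 0.55 and Bst2 0.47 with exact p = 0.24). With the library set as a term 13 of these 16 were higher with a median of 0.08, and without the 3 libraries 9 of 16 were higher with a median of 0.06.

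The remaining lists had 0 passing members. The 17 immediate early genes had a median of -0.04 (Arc -0.08 with exact p = 0.924 and Egr1 -0.04 with exact p = 0.868), and the 14 choroid plexus genes one of -0.13 (Ttr -0.13 with exact p = 0.634 and Enpp2 -0.12 with exact p = 0.221), of which 3 passed without the 3 libraries that stood apart. Astrocyte genes had a median of 0.11 over 12 (S100b 0.11 with exact p = 0.379 and Slc1a2 -0.08 with exact p = 0.799), myelin genes 0.10 over 11 (Mbp 0.11 with exact p = 0.504 and Mobp 0.10 with exact p = 0.242) and meningeal fibroblast genes 0.04 over 12 (Igfbp2 0.02 with exact p = 0.97 and Slc6a13 0.06 with exact p = 0.803). Pituitary genes, which mark tissue left at the base of the brain, had a median of 0.12 over 8, and Gh ranged from 0 to 13.9 FPKM with angiotensin II and 0 to 4.2 FPKM with vehicle (0.90, exact p = 0.558), while Pomc had a difference of 0.02 (exact p = 0.942). The 13 mitochondrially encoded genes had a median of 0.10 (mt-Co1 0.00 with exact p = 0.929 and mt-Cytb 0.08 with exact p = 0.626), and 0.02 with the library set as a term.

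**Figure D4:**
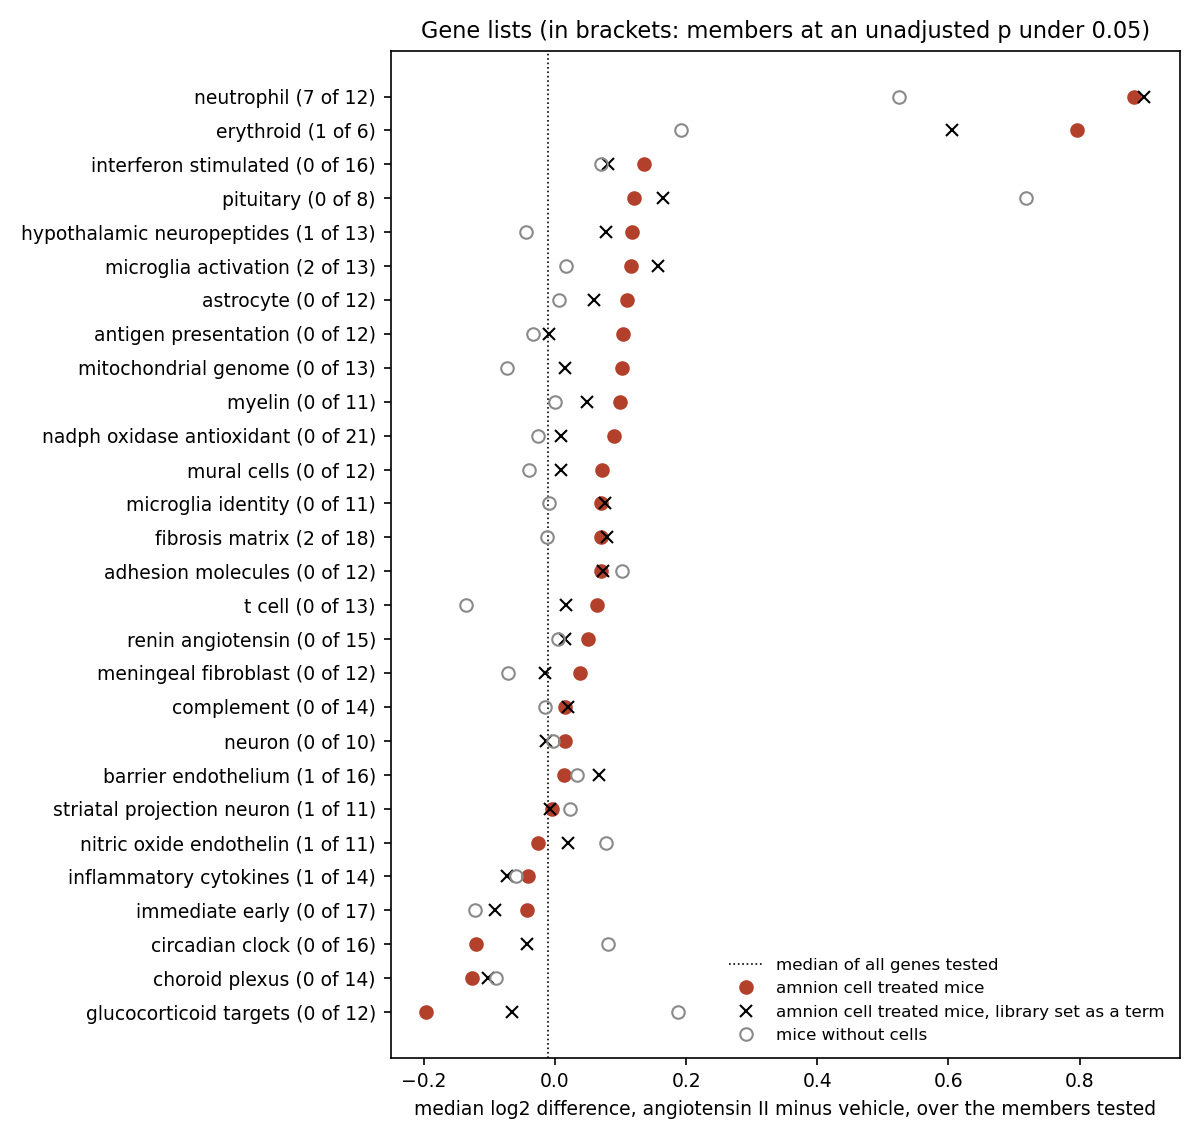
Horizontal positions are the median log2 difference between angiotensin II and vehicle over the tested members of each gene list, in red for the 12 mice with cells, as crosses for the same mice with the library set as a term, and as open circles for the 12 mice without cells. The dotted line is the median of all genes, -0.01. The neutrophil and erythroid lists lie to the right at 0.88 and 0.80, and the other lists lie between -0.20 and 0.14.

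A pair of lists holds 12 of the genes that the study names as higher and 9 of those it names as lower with angiotensin II alone. The study drew them from the mice without cells, and their FPKM values in the 12 mice with cells are independent of that choice. Whether they passed is not, because the fit shares 1 estimate of spread with the mice without cells. Of the 12 named as higher, 3 passed here, all higher, where 1.5% of all genes passed as higher. These were Ltf, S100a8 and S100a9, already counted in the neutrophil list. In the fit of the 12 mice with cells alone, 2 of the 12 named as higher passed. The median of the 12 was 0.01 with 6 genes higher and 6 lower, against 0.61 in the mice without cells. Of the 9 named as lower, 0 passed, with a median of -0.03 against -0.38 in the mice without cells. Because the lists were chosen on the mice without cells, those medians are no independent evidence of direction, and a test of the difference between the effects is touched by the same choice.

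C5ar1, the receptor of the complement fragment C5a, had 0.284, 0.366 and 0.522 FPKM with angiotensin II and 0.374, 0.469 and 0.62 FPKM with vehicle (-0.26, exact p = 0.128), against 0.49 in the mice without cells. It passed as lower without the 3 libraries (-0.41), and the test of the difference between the effects passed at the unadjusted threshold (adjusted p = 0.924). Ptcra, the pre-T cell receptor alpha chain, had a difference of -0.30 (exact p = 0.385) on 0 to 4 reads per mouse, against 1.07 without cells, and the test of the difference between the effects passed at the unadjusted threshold (adjusted p = 0.924). Cfb, complement factor B, had a difference of -0.19 (exact p = 0.225) on 0 to 4 reads per mouse and the test between the effects passed at the unadjusted threshold (adjusted p = 0.924). Trbj2-3, a T cell receptor segment with 0 to 6 reads per mouse, had a difference of 1.44 (exact p = 0.305). The differences were -0.03 (exact p = 0.933) for Ch25h, which makes 25-hydroxycholesterol, -0.06 (exact p = 0.807) for Ctsw, 0.05 (exact p = 0.853) for Dchs2 and -0.08 (exact p = 0.511) for Ulbp1. The number of such tests that passed after adjustment was 0, where the lowest adjusted p-value was 0.0745.

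Of the genes named as lower, Ptx3, the long pentraxin, had the lowest p-value (-0.42, exact p = 0.188) and was -0.62 in the mice without cells. Cebpb, a factor of the cytokine response, had 2.56, 3.11 and 4.24 FPKM with angiotensin II and 2.99, 3.56 and 4.12 FPKM with vehicle (-0.16, exact p = 0.223), and with the library set as a term it passed with a difference of -0.23. Without the 3 libraries that stood apart Cebpb passed as lower (-0.25) and Ltb4r2 as higher (0.51). Ltb4r2, a leukotriene receptor, had a difference of 0.16 (exact p = 0.569) against -0.49 without cells, and the test between the effects passed at the unadjusted threshold (adjusted p = 0.924). The cytokine feedback genes Socs1 (0.07, exact p = 0.786) and Cish (-0.08, exact p = 0.623), together with Endog (-0.03, exact p = 0.874), Cd6 (0.07, exact p = 0.805), Il17re (0.07, exact p = 0.677) and Slamf7 (-0.10, exact p = 0.208), did not pass.

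**Figure D5:**
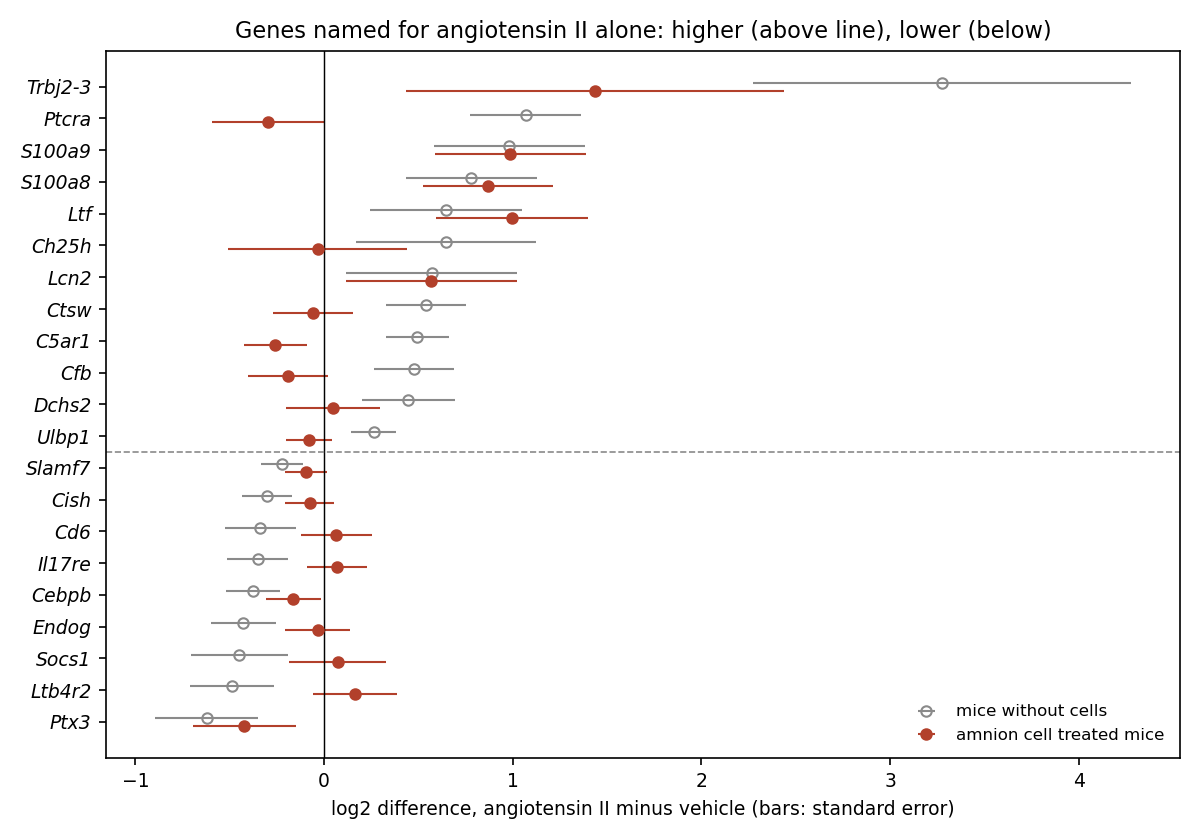
Points are log2 differences between angiotensin II and vehicle with standard errors, filled red in the 12 mice with cells and open grey in the 12 mice without cells, for the 12 listed genes that the study named as higher (above the dashed line) and the 9 listed as lower (below it) with angiotensin II alone. S100a9, S100a8, Ltf and Lcn2 have like positions in both, for example 0.99 and 0.98 for S100a9, while C5ar1 lies at -0.26 and 0.49.

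Across all genes, the effect of angiotensin II in these mice and in the mice without cells, which share no animal, was compared as a description. Both comparisons come from 1 fit that shares the estimate of spread of each gene. The genes passing in each are therefore not independent calls. In the mice without cells 449 of the same 24192 genes passed (1.86%), and 37 genes passed in both, which is 6.12% of the genes passing with cells and 8.24% of those passing without. Of these 37, 16 had the same direction, where 36.3% of all genes tested did. With the library set as a term it was 38 of 64, where 52.3% of all genes had the same direction. Without the libraries of that set it was 44 of 79, where 49.8% of all genes did. Which direction was in the majority thus depended on that set, and the share over all genes changed with it too, so these counts are no result about the genes passing in both. The correlation of the differences across genes, which are not independent of each other, was r = -0.118, and it was 0.00729 with the library set as a term. The set that stood apart was distributed the other way round in the mice without cells, with 1 library under angiotensin II and 2 under vehicle. The difference between the effects passed in 539 genes (2.23%) at an unadjusted p-value and in 0 after adjustment, while array weights left 1 gene, Tnni3k, after adjustment.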

How the data were processed

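RNA of 1 brain hemisphere sample per mouse was sequenced after poly-A selection, and each of the 24 libraries came from a separate mouse. The authors deposited 1 table of FPKM (fragments scaled to gene length and library size) with 1 column per mouse, on the Ensembl mouse genome and annotation. The submitters' processing notes name GRCm38, mm10 and DESeq 1.10.1. The aligner, the counter and the strand setting are not given in the sources used here, so reads of overlapping genes could be shared. FPKM multiplied by gene length came out as whole multiples of 1 step for 100% of values within 0.1 of a read, and these recovered reads gave the depth, 16645396 to 21229594 reads per mouse in the 12 mice with cells.

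The limma package 3.58.1 in R 4.3.3 was fitted on log2(FPKM + 0.1), to every gene above 0 FPKM in 6 or more of the 12 mice, in 1 fit of all 24 mice and 4 groups with a mean-variance trend, and p-values were adjusted by Benjamini-Hochberg over 24192 genes. A gene is said to have passed at an unadjusted p-value under 0.05. A fold on this scale understates the change of genes of low FPKM. Each p-value printed for a single gene comes, unless called adjusted, from an exact permutation of 6 against 6 mice (two-sided, difference of log2 means). The fit was also run on simulated reads with known changes. Those reads held no library set that stood apart and no change in genes of few reads, so that run does not cover either. Members, lists and rules were chosen with earlier results of these data known. Named genes were the 10 of lowest p-value in each direction with a mean of at least 1 FPKM, the 5 in each direction below that mean, all members of both lists from the study, and, of each other list, the passing members and the 2 of highest FPKM, 117 genes in all. Further genes named for groups that did not overlap or for blood cells were chosen after their values were seen. A few genes are not reported here and were left out of the lists.

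The alternatives were 11 other settings and 12 fits leaving out 1 mouse. One of them added a term for the 6 libraries whose total FPKM was high, and another dropped those 6 of 24, which left 4 angiotensin II and 5 vehicle mice with cells. Chromosomal positions of 98.3% of the IDs of the table equalled those of GENCODE M21. Promoter sequences came from RefSeq. Python 3.11.15, pandas 2.3.3, numpy 2.4.6, scipy 1.17.1 and matplotlib 3.10.9 were used.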

Additional observations from a re-analysis of the deposited data

Results flagged for a closer look

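In 29 of 234 groups of 6 mice, taken over the 117 named genes and both groups with cells, 1 mouse lay farther from the others than Dixon's critical ratio allows on the log2 scale. Chance gives about 1 in 20 such groups. Of the 29, 17 were vehicle replicate 6, the 1 vehicle library with cells that belongs to the set of high total FPKM. It was the highest of its group for the smooth muscle actin Acta2 (23.7 FPKM), B2m (130.4 FPKM), C1qa (77.5 FPKM), Cd6 (1.22 FPKM), Gpx4 (228 FPKM), Ifi27 (33.8 FPKM) and Igfbp2 (46.9 FPKM). It was also the highest for the myelin gene Mbp (666 FPKM), Npy (118.7 FPKM), the clock gene Nr1d1 (48.7 FPKM), the striatal gene Ppp1r1b (168 FPKM) and the mitochondrial mt-Cytb (10441 FPKM). It was the lowest for the receptor kinase Axl (6.09 FPKM), the clock genes Per1 (19.4 FPKM) and Tef (33.2 FPKM), the neutrophil gene S100a9 (2.10 FPKM) and the synaptic gene Snap25 (257.7 FPKM).

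Among the other vehicle mice with cells, replicate 1 was high for the neutrophil gene Lcn2 (2.14 FPKM), replicate 4 for mt-Co1 (9884 FPKM) and replicate 5 for the pituitary hormone precursor Pomc (5.90 FPKM), while replicate 3 was low for 1810019N24Rik, listed at 0. Among the angiotensin II mice with cells, replicate 1 was high for Ch25h (1.60 FPKM) and Pou2f2 (2.10 FPKM), replicate 2 for Pomc (4.46 FPKM) and 1810019N24Rik (0.0318 FPKM), and replicate 4 for Trbj2-3 (4.995 FPKM). Replicate 6 was high for the basement membrane collagen Col4a2 (12.47 FPKM) and low for Zfp58 (1.29 FPKM), and replicate 4 was low for the immediate early gene Egr1 (29.7 FPKM).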

How the results depend on the processing

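At an adjusted p-value, limma called 0 genes for angiotensin II against vehicle in each setting that was run, and for the difference from the mice without cells 0 in each setting but array weights, which called 1, Tnni3k. At an unadjusted p-value it called 605 genes (362 higher and 243 lower), and the test of a difference from the mice without cells called 539. Array weights gave 1149 (683 and 466, with 1136 for the difference), the library set as a term 968 (563 and 405), and the fit without the 6 libraries of that set 1019 (564 and 455, with 972). No filter on expression gave 987 (553 and 434, with 809), out of more genes, and a minimum mean of 1 FPKM gave 140 (95 and 45, with 122), out of fewer. Leaving out 1 mouse gave 521 to 1115 genes, 316 to 631 higher and 197 to 484 lower, with 480 to 1082 for the difference. The highest of each came without vehicle replicate 6, the 1 vehicle library of the set among the mice with cells. The cause was not tested. The counts under both other pseudocounts, rescaling by the median ratio, voom on the recovered reads and the fit of the 12 mice alone lay within 1.5 times these, and 0 named genes reversed direction as a called value in any setting run. Of the 605 genes, 543 passed in the same direction with the set as a term, 317 without its libraries and 195 in every fit leaving out 1 mouse. The neutrophil count of 7 of 12 became 3 without angiotensin II replicate 4, 4 without angiotensin II replicate 6, 5 without vehicle replicate 6 and 2 without the set.

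The replicate numbers appear in each group, but the labels do not say what they share. Deviations of same-numbered mice with cells from their group means correlated at 0.184, 0.141, 0.123, 0.170, -0.00882 and 0.527 for replicates 1 to 6. The library set was not removed from these deviations. Replicate 6 belongs to that set in both groups, and replicate 5 only with angiotensin II. The correlations therefore cannot decide whether the numbers are pairs, and the numbers were not taken as pairs. With the replicate block the counts were 976 (592 and 384), and 1272 for the difference, and 4 of 6 erythroid genes passed, against 1 without it, while the neutrophil count was 7 in both. The edgeR test planned on recovered reads was not run, because the deposited unit is FPKM. Of the 605 genes, 206 had a group in which each mouse had at most 3 reads, so depth limits these.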
